A study of Homo sapiens with 15 samples.

Results

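Transcripts of 10 secreted signalling proteins were measured: the CC chemokines CCL2, CCL5, CCL20, CCL22 and CCL28, the colony-stimulating factors CSF1, CSF2 and CSF3, tumor necrosis factor (TNF) and thymic stromal lymphopoietin (TSLP). All probes whose listed transcript belongs to one of these genes were taken, which gave 13 probes for 10 of the 20503 genes with a probe. CSF1 had 3 probes, CSF3 had 2 and every other gene had 1.

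The cells were SCC13, an immortalized human line from a squamous cell carcinoma of the skin that does not make TLR4 itself, according to the methods. They carried either the empty plasmid pUNO (SCC13-pUNO) or pUNO-TLR4GFP, which codes for TLR4 joined to green fluorescent protein (SCC13-TLR4). Both lines were grown in DMEM with 10% fetal calf serum and kept under blasticidine at 10 μg/ml, and the SCC13-TLR4 cells had been sorted for the highest GFP signal. The 15 arrays held 4 cultures of untreated SCC13-pUNO, 3 of untreated SCC13-TLR4, 4 of SCC13-pUNO and 4 of SCC13-TLR4 with ultrapure LPS at 10 μg/ml for 24 h. Each line was 1 selected population, so the replicates were cultures and not separate transfections. The p-values measure the spread between these cultures. Where slide was not in the fit, that spread includes differences between the array slides described below. The design asks whether the receptor, its bacterial ligand LPS, or the combination alters these transcripts.

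TLR4 binds bacterial lipopolysaccharide together with CD14 and MD-2 and signals through MyD88 and TRIF to NF-κB, MAP kinases and interferon regulatory factors. In keratinocytes and macrophages, many chemokine and cytokine genes are induced along this route, among them TNF, CCL20 and CSF2. CC chemokines draw leukocytes through G protein-coupled receptors, the colony-stimulating factors drive growth and survival of myeloid cells, TNF signals through TNFRSF1A and TNFRSF1B, and TSLP is an epithelial cytokine that acts on dendritic cells and lymphocytes.

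Levels are log2 intensities with the array's own 75th percentile subtracted, so that 0 is the brightness of that percentile and each unit is a doubling. A probe counts as well above background on an array where the scanner software marked it so, and levels of different probes were not set against each other. On the 15 arrays, 47.1% to 56.2% of the spots carried the mark, and the arrays of a group correlated across tested probes with Pearson's r of 0.936 to 0.994. The arrays lay on 2 slides. Slide 1 held 3 untreated SCC13-pUNO arrays and 1 untreated SCC13-TLR4 array, slide 2 held 1 and 2 of these, and both held 2 arrays of each group with LPS. The TLR4 probe A_24_P69538 stood at 2.84 to 3.19 on the 7 SCC13-TLR4 arrays and at -6.40 to -3.80 on 7 of the 8 SCC13-pUNO arrays. The array labelled untreated SCC13-pUNO replicate 2 had it at 3.04, against its label, and results are therefore also given without it. A second probe for TLR4, A_32_P66881, stayed at -6.63 to -4.96 in both lines and carried the mark on 0 arrays. Of 8 keratinocyte markers, KRT5, KRT14, KRT17, TP63, DSG3 and SFN were well above background on all 15 arrays, KRT6A on 7 and PKP1 on 6. Of the 6 macrophage markers with a probe, PTPRC, CD14, CD68 and CSF1R carried the mark on all 15 arrays, ITGAM on 7 and CD163 on 0. The mark was on every array of some group for 2 of 6 T cell, 3 of 4 endothelial and 1 of 4 melanocyte markers. In each of these 3 lists, 0 markers were at 0 arrays. Of 6 fibroblast markers, 5 were at 0 arrays.

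Most of the 10 transcripts were near or below background in all conditions. CSF1 was well above background on 13 of 15 arrays, TNF on 4, CSF3 on 3, CCL5 and CSF2 on 1 each, and CCL2, CCL20, CCL22, CCL28 and TSLP on 0. The 5 genes at 0 arrays compare with 20.2% of all genes with a probe. Probes entered the test where some group had the mark on all of its arrays. This held for 1 of 10 members, CSF1, and for 63.8% of all genes. Over the best probe of each gene and all arrays, 22 of 150 values (14.7%) carried the mark, beside 47.6% of the values of all 50599 probes. Without untreated SCC13-pUNO replicate 2, CSF1 was on 12 of 14 arrays, and the counts of the other 9 genes stayed as given.

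**Figure D1:**
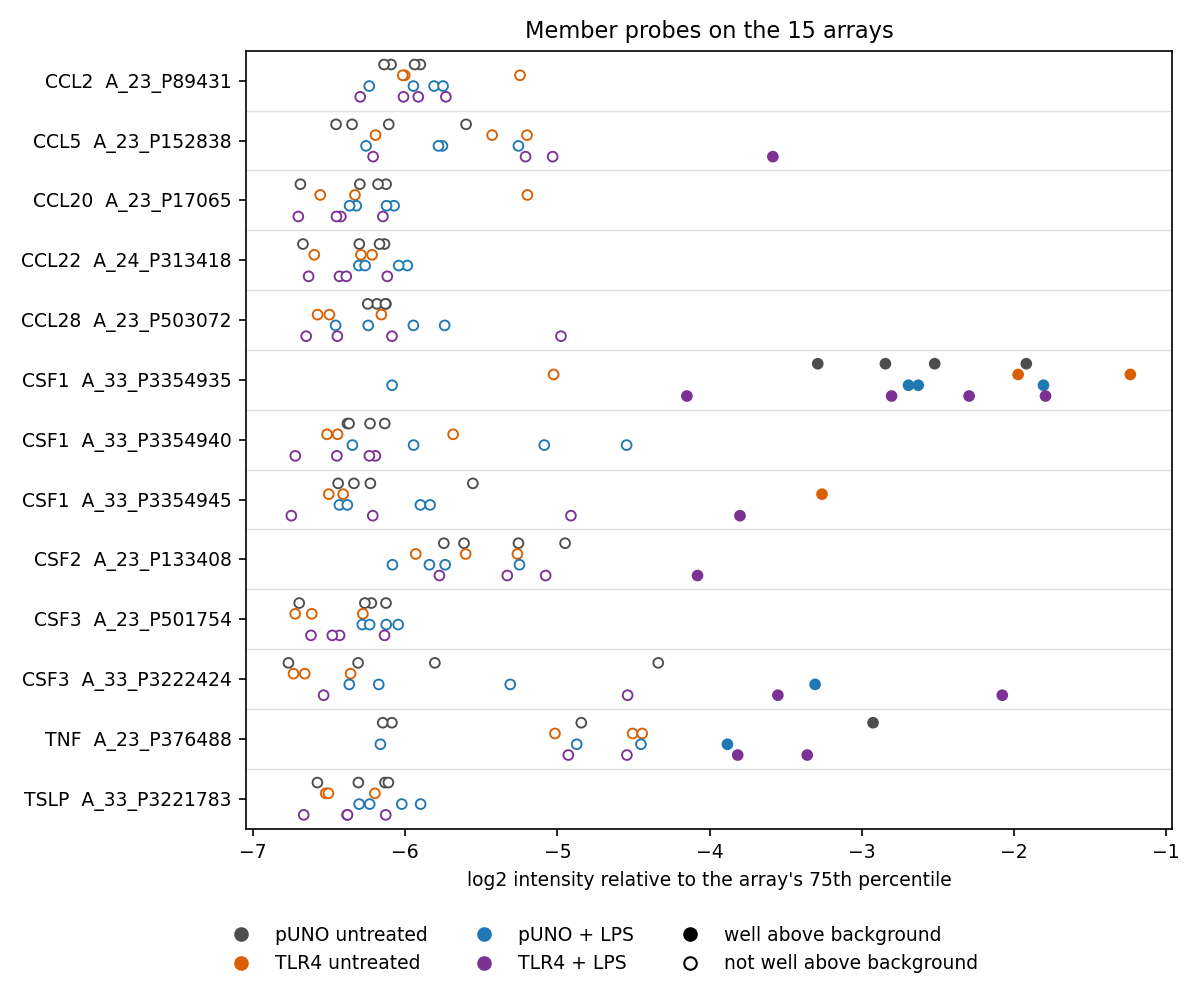
Levels of the 13 probes on the 15 arrays (x axis, log2 intensity relative to the array's 75th percentile), with 1 point per array, coloured by group and filled where the probe was well above background. Filled points are frequent for the CSF1 probe A_33_P3354935, with 13 of 15, and few or none for the other probes.

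A weaker mark of the software, for signal that is positive and significant against the local background, was more frequent. It was carried by 73 of the 150 values and by 9 of 10 genes on at least 1 array, all but TSLP. The 308 negative control spots carried it on 1.3% to 6.49% of spots per array. CSF2 had the weaker mark on 15 arrays, TNF and CSF1 on 14, CCL5 on 9, CCL2 on 8, CSF3 on 7, CCL28 on 4, and CCL20 and CCL22 on 1. These signals can be called present in that weaker sense only, and in cultured cells fewer cells with a transcript and less of it per cell cannot be told apart.

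CCL2 (A_23_P89431), the ligand of CCR2 that recruits monocytes, ranged from -6.30 to -5.25 over the arrays. Its highest value was on untreated SCC13-TLR4 replicate 2, and the other 14 arrays were at -5.73 or lower. CCL20 (A_23_P17065), the ligand of CCR6 and an attractant of dendritic cells and Th17 cells, ranged from -6.70 to -5.20. Its highest value was on the same array, the one on which it carried the weaker mark. CCL22 (A_24_P313418), a ligand of CCR4, stayed between -6.67 and -5.99. CCL28 (A_23_P503072), an epithelial chemokine that binds CCR10 and CCR3, ranged from -6.65 to -4.98, with its top on SCC13-TLR4 with LPS replicate 3. TSLP (A_33_P3221783) stayed between -6.67 and -5.90 and exceeded the 95th percentile of the negative controls on 0 of 15 arrays. In each of these 5 genes, the 4 groups overlapped, and the differences between group means ran from -0.40 to 0.37.

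CCL5 (A_23_P152838), also called RANTES, attracts T cells and monocytes through receptors that include CCR1 and CCR3. It was at -5.60, -6.11, -6.35 and -6.45 in untreated SCC13-pUNO and at -5.20, -5.43 and -6.20 in untreated SCC13-TLR4. With LPS it was at -5.76, -5.78, -5.26 and -6.26 in SCC13-pUNO and at -3.58, -6.21, -5.21 and -5.03 in SCC13-TLR4. The single value well above background was the first of the last group, and the other 14 arrays lay at -5.03 or below, with all groups overlapping. The exact permutation test of SCC13-TLR4 against SCC13-pUNO with LPS gave p = 0.229 (two-sided, n = 4 and 4).

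TNF (A_23_P376488), which is shed from the cell surface by ADAM17, was at -6.09, -6.15, -2.93 and -4.84 in untreated SCC13-pUNO and at -4.51, -4.44 and -5.02 in untreated SCC13-TLR4. With LPS it was at -4.45, -6.16, -4.87 and -3.88 in SCC13-pUNO and at -3.81, -3.36, -4.54 and -4.93 in SCC13-TLR4. The 4 values well above background were the third untreated SCC13-pUNO culture, the fourth SCC13-pUNO culture with LPS and the first and second SCC13-TLR4 cultures with LPS. The highest TNF value was in an untreated control culture, and every group overlapped every other. TNF was well above background on 3 of 8 arrays with LPS and on 1 of 7 without (Fisher's exact test, two-sided, p = 0.569), and on 2 of 7 SCC13-TLR4 against 2 of 8 SCC13-pUNO arrays. In SCC13-TLR4, 2 of 4 arrays with LPS and 0 of 3 untreated arrays were well above background, so no fold is given (exact permutation p = 0.343, two-sided, n = 4 and 3). By group means, the order was SCC13-TLR4 with LPS (-4.16 ± 0.71, SD, n = 4), untreated SCC13-TLR4 (-4.65 ± 0.31, n = 3), SCC13-pUNO with LPS (-4.84 ± 0.97, n = 4) and untreated SCC13-pUNO (-5.00 ± 1.51, n = 4), and neighbours in it differed by less than the larger SD of the pair.

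CSF3, or G-CSF, is the growth factor of neutrophils. Its probe A_33_P3222424 was at -5.81, -6.31, -4.34 and -6.77 in untreated SCC13-pUNO and at -6.66, -6.73 and -6.36 in untreated SCC13-TLR4. With LPS it was at -6.17, -6.37, -5.31 and -3.31 in SCC13-pUNO and at -4.54, -2.08, -6.54 and -3.55 in SCC13-TLR4. It was well above background on 3 of 8 arrays with LPS, 2 of them SCC13-TLR4, and on 0 of 7 without, which Fisher's exact test did not separate (two-sided p = 0.200). In SCC13-TLR4, 11 of the 12 pairs of an LPS culture and an untreated culture were higher with LPS, and the third LPS culture overlapped the untreated range. The LPS mean of -4.18 ± 1.87 (SD, n = 4) stood against -6.58 ± 0.20 (n = 3; exact permutation p = 0.0857, two-sided). Of these arrays, 2 of the 4 with LPS and all untreated ones were not well above background. Differences in level at this probe are therefore not read as folds. The second CSF3 probe, A_23_P501754, is listed under the same transcript and was well above background on 0 arrays. In SCC13-TLR4 it had group means of -6.42 with LPS and -6.54 without. The first probe was chosen to represent CSF3 because it was well above background on more arrays, all of them with LPS. Its comparisons of LPS with untreated cultures are therefore not independent of that choice. On slide 1, where 1 untreated array stood against 2 with LPS, the difference at the first probe was 3.35, and on slide 2, with 2 against 2, it was 1.5.

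CSF2, or GM-CSF, supports granulocytes, macrophages and dendritic cells and is made by stimulated keratinocytes. Its probe A_23_P133408 was at -4.95, -5.26, -5.75 and -5.61 in untreated SCC13-pUNO and at -5.93, -5.26 and -5.60 in untreated SCC13-TLR4. With LPS it was at -6.08, -5.74, -5.25 and -5.84 in SCC13-pUNO and at -5.78, -5.33, -4.08 and -5.08 in SCC13-TLR4. The value of -4.08 was the one well above background, and the groups overlapped. SCC13-TLR4 exceeded SCC13-pUNO with LPS in 13 of 16 pairs (exact permutation p = 0.171, two-sided, n = 4 and 4).

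**Figure D2:**
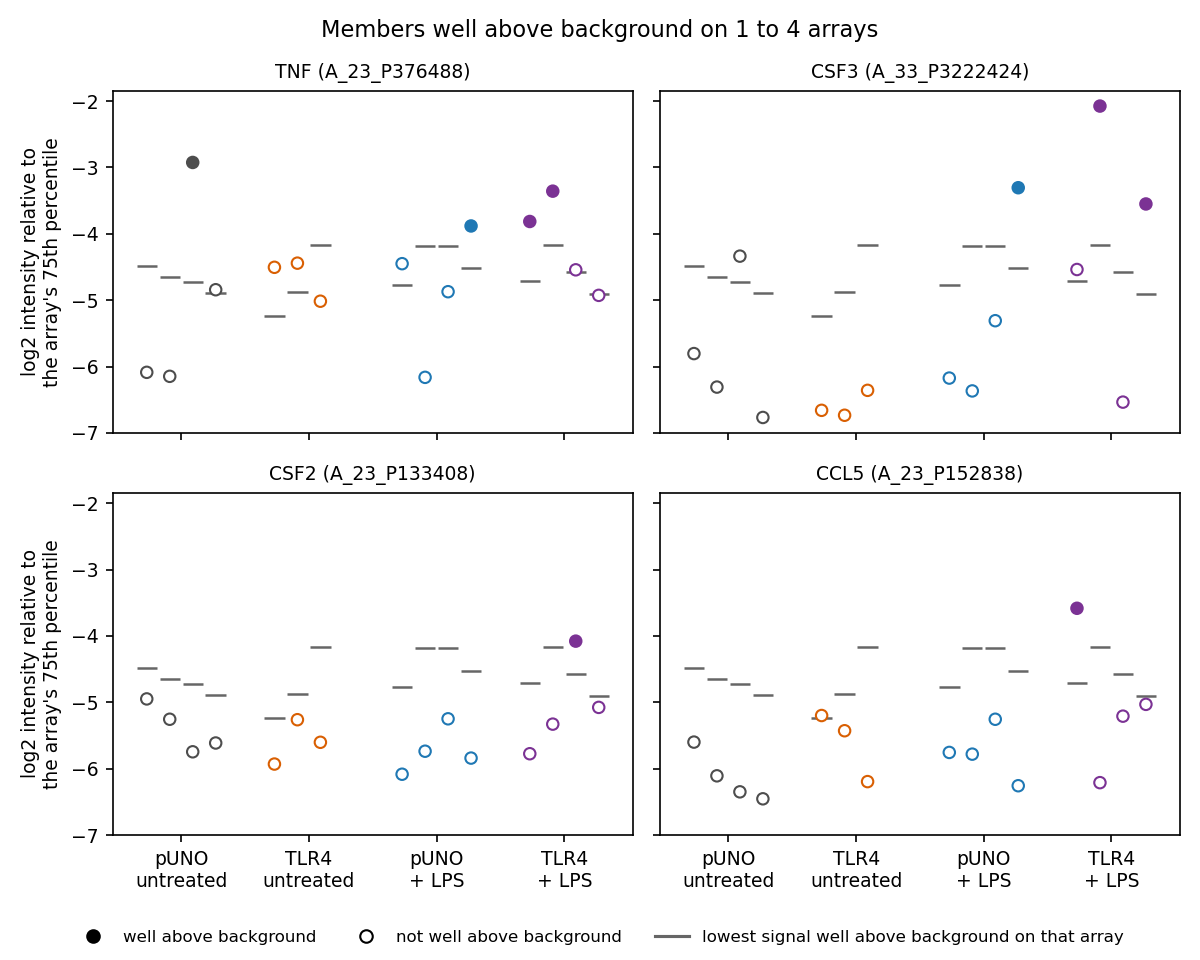
Levels of TNF, CSF3, CSF2 and CCL5 by group (y axis, log2 intensity relative to the array's 75th percentile), with 1 point per array in order of replicate number, filled where well above background. Grey ticks give the lowest signal of any probe well above background on that array, from -5.23 to -4.16; filled points number 4, 3, 1 and 1 in that order of genes.

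CSF1, or M-CSF, is the ligand of CSF1R that keeps macrophages and their precursors alive, and it was the member most often well above background. Its probe A_33_P3354935, listed under transcript NM_172212, was at -2.52, -3.29, -2.84 and -1.92 in untreated SCC13-pUNO and at -5.02, -1.23 and -1.97 in untreated SCC13-TLR4. With LPS it was at -6.09, -2.63, -2.69 and -1.80 in SCC13-pUNO and at -4.15, -2.80, -1.79 and -2.29 in SCC13-TLR4. The first untreated SCC13-TLR4 culture and the first SCC13-pUNO culture with LPS were not well above background, and all groups overlapped. Group means were -2.64 ± 0.58 (SD, n = 4), -2.74 ± 2.01 (n = 3), -3.30 ± 1.90 (n = 4) and -2.76 ± 1.01 (n = 4) in the same order. The means differed by at most 0.66, less than the SD of 3 of the 4 groups. The spots on both dim arrays were not marked as outliers, and the 105 spots around each differed from the other arrays of the slide by a median of 0.07 and 0.03, where CSF1 differed by -2.18 and -3.24. The other CSF1 probes, which are listed under other transcripts, were rarely seen. A_33_P3354940 (NM_000757) was well above background on 0 arrays, and A_33_P3354945 (NM_172210) on 2, untreated SCC13-TLR4 replicate 3 at -3.26 and SCC13-TLR4 with LPS replicate 2 at -3.80. No relation of CSF1 or another member to further genes was computed, since no member was well above background on all 15 arrays.

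In the limma fit over 22685 tested probes, CSF1 did not pass an adjusted p of 0.05 in any comparison, so 0 of the 10 genes were called. All tested probes gave 0% called for SCC13-TLR4 against SCC13-pUNO without and with LPS, for LPS in each line and for the difference between the responses of the lines, and 0.022% for the lines over both conditions. The 5 probes called over both conditions included TLR4 itself. At an unadjusted limma p under 0.05 there were 566, 617, 562, 301 and 299 probes in the comparisons with 0 calls, in that order, and CSF1 was in none. The log2 fold changes of CSF1 ranged from -0.66 for LPS in SCC13-pUNO to 0.64 for the difference between the responses, with standard errors of 0.69 to 1.37 and unadjusted limma p from 0.490 to 0.988. Without untreated SCC13-pUNO replicate 2 they ranged from -0.88 to 0.86, with adjusted limma p from 0.999 upward, and 0 of the 10 genes were called. Among all probes tested without that array, 7 were called for the untreated lines, 10 for the lines with LPS and 23 over both conditions.

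Across the best probes of all 10 genes, 0 of 10 had groups that did not overlap in any of the 4 comparisons of 2 groups. Of all probes, 3.47% did not overlap between the untreated lines, 1.41% between the lines with LPS, 1.55% between LPS and untreated SCC13-pUNO, and 2.22% between LPS and untreated SCC13-TLR4. The exact permutation tests of all 13 probes gave 0 of 52 with an unadjusted p under 0.05, and the smallest was 0.0857, where this design can reach 0.0286. Besides CSF3 A_33_P3222424 for LPS in SCC13-TLR4, probes well above background on 0 arrays reached that value. CSF1 A_33_P3354940 did so at -0.92 for the lines with LPS and 0.80 for LPS in SCC13-pUNO. CSF3 A_23_P501754 did so at -0.24 for the lines with LPS. The best probes of these genes had 0.54, -0.66 and 1.11 there, of opposite sign. Differences between group means were from -0.78 (CSF3) to 0.52 (CCL5) for the untreated lines, from -0.27 (TSLP) to 1.11 (CSF3) for the lines with LPS, from -0.66 (CSF1) to 0.52 (CSF3) for LPS in SCC13-pUNO, and from -0.40 (CCL20) to 2.41 (CSF3) for LPS in SCC13-TLR4. Without untreated SCC13-pUNO replicate 2, the differences were from -0.95 (CSF3) to 0.53 (CCL5) for the untreated lines and from -0.88 (CSF1) to 0.37 (CCL5) for LPS in SCC13-pUNO, with exact permutation p of 0.200 or more and 0.229 or more. The TNF differences turned sign without that array, from 0.35 to -0.04 for the untreated lines and from 0.16 to -0.22 for LPS in SCC13-pUNO. With LPS, 6 of the 10 genes were higher in SCC13-TLR4, beside 10829 of the 22685 tested probes. The untreated lines had 4 of 10, beside 10235 of the tested probes. For LPS over untreated cells, 8 of 10 were higher in SCC13-pUNO and 6 of 10 in SCC13-TLR4, beside 10873 and 10901 of the tested probes. The differences of most genes were between signals not well above background.

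CSF1 differed between the slides. It stood at -6.09 to -2.52 on the 8 arrays of slide 1 and at -2.69 to -1.23 on the 7 arrays of slide 2. The mean was 1.71 higher on slide 2 (exact permutation test over the arrays, two-sided unadjusted p = 0.00202, the smallest of the 13 probes), and in the limma fit with slide as a factor the difference was 1.92 (SE 0.50, adjusted p = 0.00735). Of all tested probes, 51.8% passed the same test. In untreated SCC13-pUNO and in both SCC13-TLR4 groups every slide 2 array was above every slide 1 array, and in SCC13-pUNO with LPS the slides overlapped. With slide as a factor, CSF1 was lower in untreated SCC13-TLR4 than in untreated SCC13-pUNO by a log2 fold change of -0.90 and higher by 0.54 with LPS, and it was not called. Within slide 1 the untreated difference of SCC13-TLR4 from SCC13-pUNO was -2.14 and rested on the 1 dim SCC13-TLR4 array, and within slide 2 it was 0.32 and rested on 1 SCC13-pUNO array. With LPS, where each slide held 2 arrays of each line, it was 0.88 and 0.21. On slide 2, CSF3 was 0.23 lower and TNF 0.03 higher. CCL2, well above background on 0 arrays, was 0.27 higher there (exact permutation test, two-sided unadjusted p = 0.0168).

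**Figure D3:**
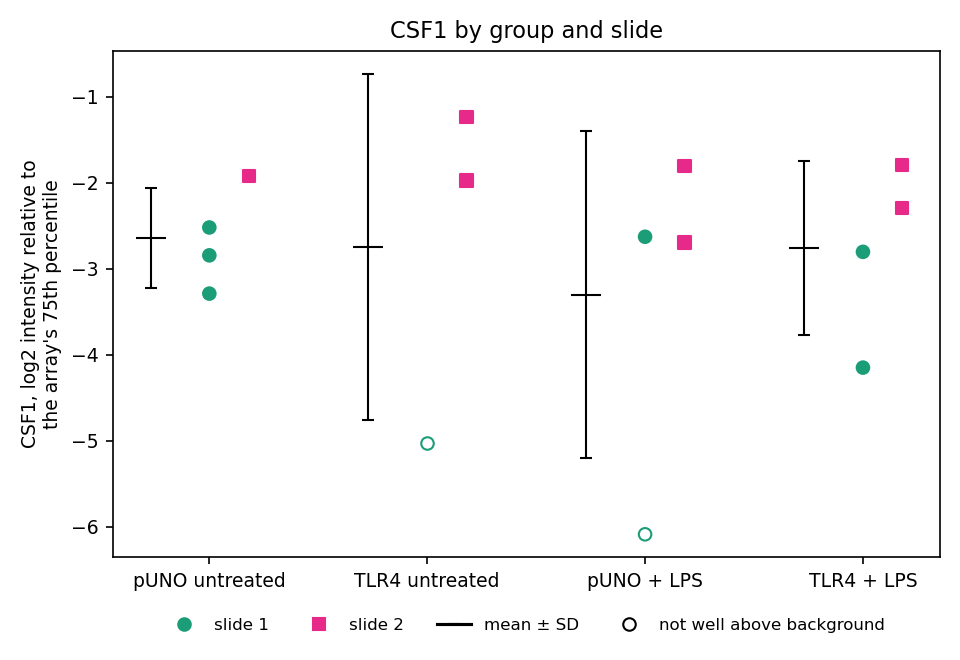
CSF1 level at probe A_33_P3354935 by group (y axis, log2 intensity relative to the array's 75th percentile), with 1 point per array, circles for slide 1 and squares for slide 2, open where not well above background, and the mean ± SD beside them. Slide 2 arrays lie between -2.69 and -1.23, and the 4 group means overlap within their SD.

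Genes around the 10 members were then counted from lists. Of 21 other CC chemokines, 19 had a probe, 5 were tested and 6 were on 0 arrays. Of 17 receptors of the members, 8 were tested and 4 were on 0 arrays, and of 18 other ligands of the TNF superfamily or of CSF1R, 6 were tested and 7 were on 0 arrays. By contrast, 19 of 20 genes of TNF receptor signalling and TNF processing were tested, and 0 were on 0 arrays. Of the 19 NF-κB target genes with a probe, 13 (68.4%) were tested and 6 (31.6%) were on 0 arrays. Among all genes with a probe, these shares were 63.8% and 20.2%.

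**Figure D4:**
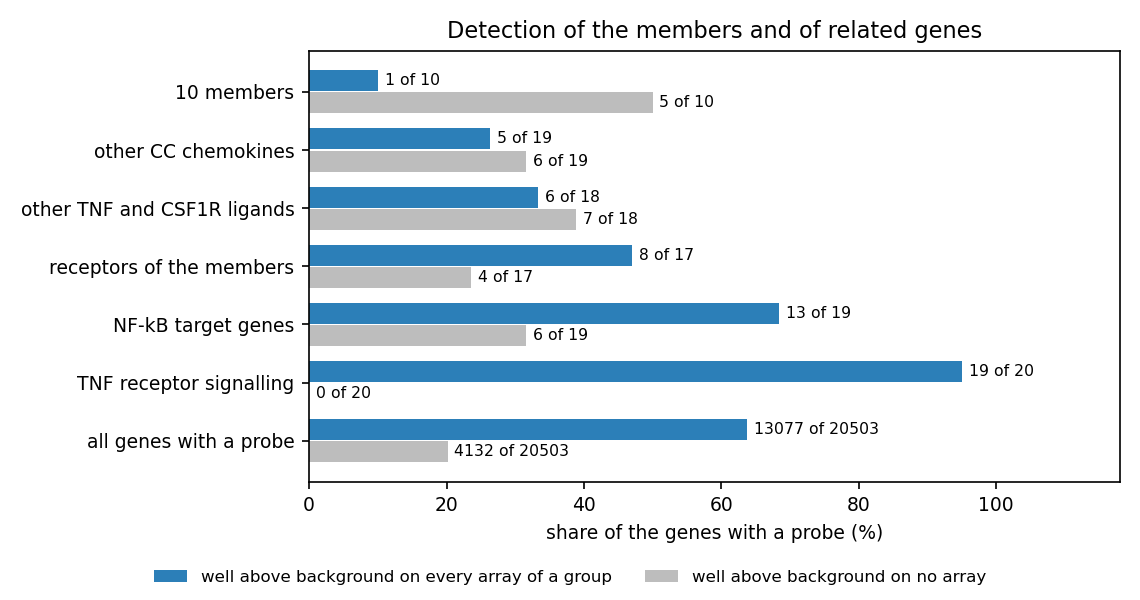
Share of genes (x axis, percent of the genes with a probe) that entered the test (blue) and that were well above background on no array (grey), for the 10 members, for 5 lists of related genes and for all genes. The members have the lowest blue bar, 1 of 10, and the longest grey bar, 5 of 10.

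Some receptors were seen where the member that binds them was not. CCR6, the receptor of CCL20, and CRLF2 and IL7R, the chains of the TSLP receptor, were well above background on all 15 arrays, and CCL20 and TSLP on 0. CSF1R and CSF3R were also on all 15, but CSF1 was on 13 and CSF3 on 3. CCR10 was on 14, with its ligands CCL28 on 0 and CCL27 on 13. Of the GM-CSF receptor chains, CSF2RB was on 12 arrays and CSF2RA on 2, and CSF2 was on 1. CCR3 was on 3 arrays and ACKR2 on 2. CCR1, CCR2 and CCR4, which bind CCL5, CCL2 and CCL22, and the scavenging receptor ACKR1 were on 0 arrays. The TNF receptors TNFRSF1A and TNFRSF1B were well above background on 7 and 6 arrays and were not tested. CSF1R and other leukocyte genes carried the mark in this epithelial line too, and what part other sources of signal have in that was not tested.

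None of these genes passed the test in any of the 6 comparisons, 0 of 5, 0 of 8, 0 of 6, 0 of 19 and 0 of 13 for the lists as ordered above. At an unadjusted limma p under 0.05, each list had at most 2 genes in a comparison. Over both conditions, the median log2 fold change of SCC13-TLR4 over SCC13-pUNO was -0.01 for all tested probes. It was 0.38 for the other CC chemokines, 0.11 for the receptors, 0.07 for the other ligands, -0.02 for TNF receptor signalling and -0.02 for NF-κB targets. Among the CC chemokines, CCL19, CCL26 and CCL27 entered the test only through SCC13-TLR4 groups. The filter thus favoured a positive median there, and no line effect is read from it. CCL16 and CCL24, well above background on all 15 arrays, were at 0.02 and -0.20. Without untreated SCC13-pUNO replicate 2, and likewise with slide as a factor, 0 list genes were called, and with both changes together 1 was, CCL26 between the lines with LPS. Its adjusted p in that limma fit was 0.0461, and 22 of the 22753 probes tested there (0.0967%) were called in that comparison. Over both conditions, 23 probes were called without that array, 22 with slide as a factor and 49 with both changes.

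CCL26, or eotaxin-3, attracts eosinophils through CCR3. It was at -3.77, -4.35, -4.17 and -4.18 in untreated SCC13-pUNO, at -4.64, -4.12 and -4.17 in untreated SCC13-TLR4, at -4.26, -4.59, -4.91 and -4.46 in SCC13-pUNO with LPS and at -3.47, -3.50, -3.48 and -3.64 in SCC13-TLR4 with LPS. The last group lay above all the other arrays. It was also the group through which CCL26 entered the test, with all 4 arrays well above background against 1, 1 and 0 in the groups before it. With LPS, the log2 difference of SCC13-TLR4 from SCC13-pUNO was 1.03 (SE 0.16). The SCC13-pUNO signals in it were not well above background, so no fold is given. The difference did not pass in limma (adjusted p = 0.312). The difference between the responses of the lines was 1.23 (SE 0.24, limma adjusted p = 1.000), and over both conditions the fold change was 0.42 (SE 0.12) with the sign turned, at -0.01, under normexp background correction.

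The other genes named by the rule did not pass either. Over both conditions, CCL27, a skin chemokine and the second ligand of CCR10, had a log2 fold change of 0.54 (SE 0.32). CCL19 had 0.38 (SE 0.38) and CCL24 had -0.20 (SE 0.41). CCL27 and CCL19 entered the test only through SCC13-TLR4 groups. Among receptors, IL7R was at -0.32 (SE 0.13, limma adjusted p = 0.996), CCR6 at 0.22 (SE 0.12), CRLF2 at -0.22 (SE 0.18) and CSF2RB at -0.73 (SE 0.61). The last of these entered the test only through the SCC13-pUNO groups, where its mean was higher. CSF2RB, the shared signalling chain of the GM-CSF receptor, was spread like CSF1, with -6.36 on untreated SCC13-TLR4 replicate 1 and -6.00 on SCC13-TLR4 with LPS replicate 2, and -4.02 to -2.42 on the other arrays.

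Among the other ligands, CD70 was at 0.15, TNFSF13B (BAFF) at 0.19, TNFSF9 (4-1BB ligand) at 0.07 and TNFSF15 at 0.07, with standard errors of 0.11 to 0.22. In TNF receptor signalling, the adaptor TRAF5 had a fold change of -0.30 (SE 0.10), SHARPIN, a subunit of the linear ubiquitin ligase, of -0.34 (SE 0.13), TRAF2 of -0.13 and TAB2 of -0.10, with a limma adjusted p of 0.996 for each. Of the NF-κB targets, TNFAIP2 was at -0.18 (SE 0.08), IL1B at 0.18 (SE 0.10), BCL3 at -0.25 (SE 0.15) and IER3 at 0.16 (SE 0.10). TNFAIP3, ICAM1, IRAK2, CXCL3, CXCL8 and PTGS2, which TNF and LPS induce in many cell types, were well above background on 0 of 15 arrays, also with LPS. For LPS against untreated cells, the 13 tested NF-κB targets ranged from -0.17 to 0.33 in SCC13-pUNO and from -0.18 to 0.18 in SCC13-TLR4.

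**Figure D5:**
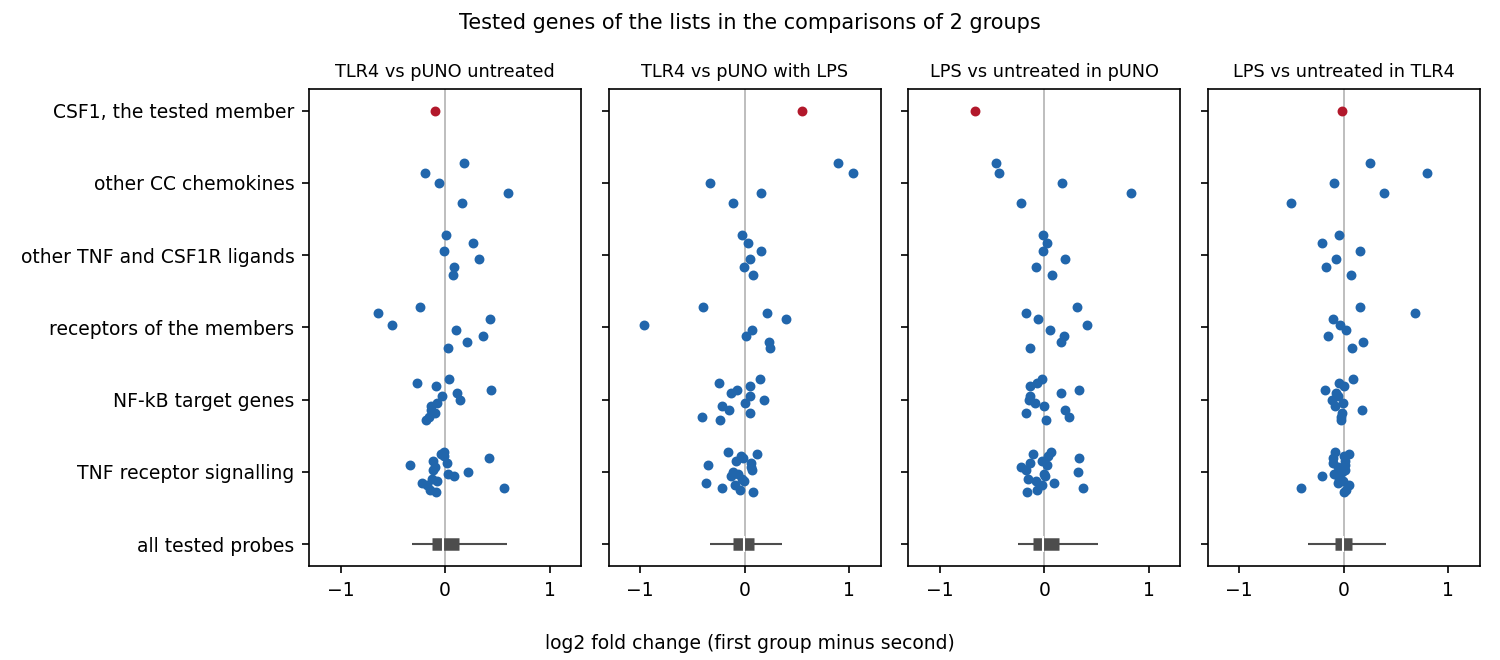
Log2 fold changes (x axis) of CSF1 and of the tested genes of 5 lists in the 4 comparisons of 2 groups, with 1 point per gene and, for all tested probes, the interquartile range (thick bar) and the 5th to 95th percentile (line). CSF1 ran from -0.66 to 0.54 and the NF-κB targets stayed within -0.41 to 0.44.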

How the data were processed

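Total RNA of 15 SCC13 cultures was labelled with Cy3 and hybridised to Agilent SurePrint G3 Human 8x60K arrays. Per the file headers, the authors' Feature Extraction software (10.7.3.1) subtracted background and wrote a linear intensity for each spot; the deposited value table held the same intensity at all 62976 spots. Intensities were divided by the 75th percentile of the non-control spots of the array and taken as log2. Outlier-marked spots were left out and spots of a probe averaged. Probes were named through RefSeq accessions (28174 of 50599 probes). A probe was tested where it was well above background on every array of a group (22685 probes), with limma 3.58.1 in R 4.3.3, 1 mean per group over all arrays and Benjamini-Hochberg adjustment over all tested probes; exact permutation tests compared 2 groups. A gene was represented by its brightest tested probe, or else by the one detected on most arrays.

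The members and lists were chosen with earlier results of these data known. List genes were named where they passed the threshold, and otherwise up to 4 per list with the smallest unadjusted p over both conditions; CCL26 in the other comparisons was described after its values were seen. Members not passing were given as ranges. Values of 1 receptor gene of the lists are not reported here. The weaker detection mark, the negative controls and the list counts without an array were added after seeing the data. The normexp alternative used the median spot signal, since the files held no mean signal. The number of arrays limits the precision. The fits were tested on simulated data with independent arrays, which held no slide effect and no array against its label.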

Additional observations from a re-analysis of the deposited data

How the results depend on the processing

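The count of members past the threshold was 0 in each of the 6 comparisons under all alternatives run: normexp background correction, quantile normalization, no filter on dim probes, outlier-marked spots kept, replicate number as a block, slide as a factor with and without untreated SCC13-pUNO replicate 2, array weights, trend and robust moderation, the compared groups alone, the mean of the tested probes of a gene, an added fold change threshold, and each array left out (0 to 0). Except where no filter was used, CSF1 was the only member in these fits, so no other member could be called there. With outlier-marked spots kept, and with the mean of the tested probes, the CSF1 fold changes were those of the main fit. With a filter for probes well above background on all 15 arrays, no member could be fitted. By the weaker detection mark or the negative controls, 9 members in place of 5 were detected on at least 1 array. Of the list genes, 0 were called and 1 with slide as a factor and without untreated SCC13-pUNO replicate 2.

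The sign of CSF1 was not settled in any comparison. For the untreated lines (-0.10) it was 0.14 with normexp, 0.20 with the replicate block, 0.97 with array weights and from -0.86 to 1.04 with 1 array left out. For the lines with LPS (0.54) it was -0.028 with normexp and -0.38 to 1.04 with 1 array left out. For LPS in SCC13-pUNO (-0.66) it was 0.013 with normexp and -1.16 to 0.27 with 1 array left out, and for LPS in SCC13-TLR4 (-0.02) it was 0.30 with slide as a factor, 0.30 also without untreated SCC13-pUNO replicate 2, and -1.16 to 0.74 with 1 array left out. For the difference between the responses (0.64) it was -0.17 with normexp, -0.50 with array weights and -0.50 to 1.40 with 1 array left out. Over both conditions (0.22) it was -0.18 with slide as a factor, -0.20 also without untreated SCC13-pUNO replicate 2, and -0.24 to 0.79 with 1 array left out. The arrays whose omission turned a sign included the dim ones, SCC13-pUNO with LPS replicate 1 (-0.38 for the lines with LPS) and untreated SCC13-TLR4 replicate 1 (1.04 for the untreated lines). The cause of these reversals was not tested.

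Over both conditions, CCL26 was at -0.012 and CCL19 at -0.016 with normexp, CCL24 at 0.17 with array weights and from -0.39 to 0.15 with 1 array left out (0.15 without untreated SCC13-TLR4 replicate 1), CSF2RB at 0.15 as the mean of its probes, and TNFSF15 at -0.022 with normexp, -0.022 with quantile normalization, -0.00027 with slide as a factor and without untreated SCC13-pUNO replicate 2, and from -0.0064 to 0.18 with 1 array left out (-0.0064 without SCC13-pUNO with LPS replicate 1). The labels tie the replicate numbers to no shared batch. Same-numbered arrays of different groups had deviations correlated at -0.54 to 0.62 (median 0.35) and other arrays of different groups at a median of -0.23, while such pairs on the same slide were at 0.15 to 0.68 and those on different slides at -0.61 to -0.13. The numbers were therefore not taken to pair the cultures. With the replicate block, 0 members were called. Dim signal limits what can be said of 9 of the 10 members.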
